A study of Mus musculus with 4 samples.

Results

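The ligands of the epidermal growth factor (EGF) receptor family and their receptors were followed in whole epidermis of mice labelled Irx5+/+ and Irx5-/-. The members are 10 genes taken by symbol, namely the ligand genes Areg, Ereg, Epgn, Hbegf, Tgfa, Btc and Egf and the receptor genes Egfr, Erbb2 and Erbb3, out of 23847 rows in the expression table. All 10 were found, each on 1 row. They form a family by name, and the family was chosen by the difference in FPKM between the Irx5KO and WT libraries used here, so that difference is given for them as a description, with no p-value, and counts of members called stand only beside the share of all rows. Bulk RNA was sequenced from 2 wild-type libraries (WT, Irx5+/+) and 2 libraries labelled knockout (Irx5KO, Irx5-/-), all from back skin at postnatal day 20, and each library is taken as 1 mouse. Irx5 encodes a homeodomain transcription factor, and the series title ties it to repair of DNA damage and to hair follicle stem cells. All 4 skins were treated with 0.25% trypsin for 2 h at 34 °C before the epidermal side was separated. Library kits of SMARTER and Illumina type are both given, with no word on which made these libraries, and the labels give no strain, sex or description of the Irx5 allele.

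Ligands of this family are made as membrane-anchored precursors and are released by metalloproteases of the ADAM family. A released ligand binds a receptor on the same or a nearby cell, the receptor pairs with another member of the family, and the signal runs through adaptor proteins and Ras to the kinase ERK, which switches on early response genes. Amphiregulin (Areg), epigen (Epgn), TGF-alpha (Tgfa) and EGF bind EGFR. Epiregulin (Ereg), HB-EGF (Hbegf) and betacellulin (Btc) bind both EGFR and ErbB4. ErbB2 has no known ligand of its own, and ErbB3, whose kinase is weak, is bound by neuregulins. In mouse skin the family is known for its part in hair follicle growth and wound repair, and mutations of Tgfa and Egfr give mice wavy hair.

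The unit is FPKM, fragment counts divided by transcript length and by the mapped total, so that levels of genes of different length can be set side by side. The deposited values summed to between 451080 and 603270 per library, and from the steps between low values 1 FPKM on a transcript of 2000 bases stood for an estimated 94.0 to 108 fragments. Irx5 itself was at 17.4 FPKM in WT replicate 1, 16.4 in WT replicate 2, 10.01 in Irx5KO replicate 1 and 10.08 in Irx5KO replicate 2 (log2 change -0.70, SE 0.162, adjusted p = 0.0117 in limma). That call was lost without Irx5KO replicate 1 (adjusted p = 0.103), without Irx5KO replicate 2 (adjusted p = 0.0899) and after rescaling to TPM (adjusted p = 0.0577). Irx5 RNA in the libraries labelled Irx5KO was thus at 59.5% of WT and not absent, and without a description of the allele these values do not check the label. Xist, expressed from the inactive X chromosome, was at 36.6 and 33.9 FPKM in WT against 0.0606 and 0.0459 FPKM in Irx5KO, and the Y-linked gene Eif2s3y was at 0.035 and 0.0422 against 70.9 and 75.7 FPKM, so that genotype and sex cannot be told apart. Of 11643 rows with at least 1 FPKM in at least 2 libraries, 4200 passed an adjusted p of 0.05 (36.1%), 3127 of them higher in Irx5KO (26.9%) and 1073 lower (9.22%). The median log2 change over all rows tested was 0.26. Scaling by the median of ratios brought that median to -0.00 and the counts to 1226 higher and 1613 lower.

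The libraries carried the marks of epidermis. Krt5, Krt14, Krt15, Krt1 and Krt10, the keratins of basal and suprabasal keratinocytes, were at 635 FPKM or more in every library. Of 10 keratinocyte markers tested, 1 rose, beside 26.9% of all rows, 2 fell, beside 9.22%, and 7 did not pass. The 30% called lie near the 36.1% of all rows. Krt14 fell from 4807 and 5211 to 1520 and 1576 FPKM (limma adjusted p = 0.00439) and Ivl, a cornified envelope gene, from 77.8 and 102 to 49.0 and 48.9 FPKM (limma adjusted p = 0.0107). Trp63, the master regulator of the basal layer, rose from 85.0 and 86.4 to 191 and 144 FPKM (limma adjusted p = 0.00871). The collagen genes Col1a1, Col1a2 and Col3a1 stayed under 1.2 FPKM and the adipocyte gene Cidec was listed at 0. Some markers of other cells also differed with genotype. Vim, the one fibroblast marker above the filter, which other cells also express, fell from 89.2 and 69.2 to 31.3 and 46.7 FPKM (limma adjusted p = 0.0105). The melanocyte gene Dct fell from 7.39 and 16.4 to 5.91 and 4.29 FPKM (limma adjusted p = 0.0350). The other melanocyte markers tested, Pmel (1.71 and 5.33 against 1.78 and 1.51 FPKM) and Mlana, overlapped and did not pass. Hba-a1, of red blood cells, fell from 74.2 and 136 to 38.2 and 66.1 FPKM (limma adjusted p = 0.0428). That symbol has 2 rows, and the row of higher level was read. Alas2, the other red blood cell marker found, was under the filter and overlapped. The markers given with values were named after these were seen. Of 9 Langerhans cell and macrophage markers on the list, 8 were in the table. Their sum was 1024 and 556 FPKM in WT against 253 and 342 FPKM in Irx5KO. Of 7 tested, 4 were lower, beside 9.22% of all rows, none was higher and 3 did not pass. Cd207, which defines Langerhans cells, went from 107 and 96.8 to 10.4 and 15.1 FPKM. Csf1r did not pass and lay higher in Irx5KO, at 5.94 and 5.37 against 6.41 and 6.82 FPKM. Ptprc (5.84 and 4.31 against 5.32 and 5.17 FPKM) and H2-Aa (196 and 32.4 against 17.2 and 36.8 FPKM) did not pass and overlapped. The 5 T cell markers in the table overlapped between the genotypes, with sums of 135 and 58.2 against 93.4 and 104 FPKM. In bulk tissue, fewer cells of a type and less RNA per cell cannot be told apart, and the part of these cells in the values below was not tested.

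Areg, Ereg, Epgn and Btc lie side by side on mouse chromosome 5 within 375531 bases (mm10). Epgn comes first at chr5:91027464-91035215 on the plus strand, followed by Ereg at chr5:91074622-91093646 and Areg at chr5:91139599-91148432 on the same strand, and Btc closes the group at chr5:91357261-91402994 on the minus strand.

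RefSeq promoter sequences (GRCm38.p6) were matched for 7 of the 10 members. Ereg, Hbegf and Erbb3 had no match, so their promoters were not searched, although Ereg and Hbegf were also far lower in Irx5KO. Those of 3 cluster genes are shown because Areg and Epgn differed most between the genotypes and Btc, their neighbour, least. Each line gives the 150 bases before the first base of the gene in GENCODE, 5′ to 3′ on the gene's strand, with matches to TATAAA or TGACGTCA in capitals, at chr5:91139449-91139598 for Areg, chr5:91027314-91027463 for Epgn and chr5:91402995-91403144 for Btc.
Areg: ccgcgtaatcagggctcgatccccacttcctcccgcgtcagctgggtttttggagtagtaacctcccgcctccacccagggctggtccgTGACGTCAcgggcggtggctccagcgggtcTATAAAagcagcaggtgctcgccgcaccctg
Epgn: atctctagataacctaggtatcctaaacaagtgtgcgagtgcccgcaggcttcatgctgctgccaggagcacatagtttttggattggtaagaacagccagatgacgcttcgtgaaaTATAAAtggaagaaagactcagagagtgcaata
Btc: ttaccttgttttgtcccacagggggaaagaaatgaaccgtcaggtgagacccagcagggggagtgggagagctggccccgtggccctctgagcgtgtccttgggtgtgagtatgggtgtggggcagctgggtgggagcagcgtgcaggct
The Areg promoter held TGACGTCA, the cyclic AMP response element, 61 to 54 bases before the gene and a TATAAA 31 to 26 bases before it. The Epgn promoter held a TATAAA 33 to 28 bases before the gene. These distances count from the GENCODE start, and the RefSeq start of Epgn lies 53 bases further downstream, while those of Areg and Btc coincide. In the 250 bases before RefSeq starts, searched on both strands, TATAAA was found in 12.4% of 32851 promoters, TGACGTCA in 1.55% and TGANTCA, the AP-1 motif, in 6.75%. Matches of these motifs did not overlap one another in the members. No other match to the 3 motifs was found in the promoters of the 7 matched members, which says only that these letters are not in that window. Whether a motif goes with the change in level was not tested.

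The other members are scattered over the genome. Hbegf is at chr18:36504927-36515805, Tgfa at chr6:86195223-86275719, Egf at chr3:129677565-129755316, Egfr at chr11:16752203-16918158, Erbb2 at chr11:98412470-98437716 and Erbb3 at chr10:128567523-128589652. Erbb2 overlaps Mien1 on the opposite strand, and strand-specific counting is not stated. Mien1 was at 57.7 and 41.8 FPKM in WT against 35.0 and 37.96 FPKM in Irx5KO.

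Epgn, Areg, Hbegf and Ereg made up most of the ligand RNA of WT epidermis and were far lower in Irx5KO. Epgn, the EGFR ligand epigen, read 149 FPKM in WT replicate 1, 245 in WT replicate 2, 1.47 in Irx5KO replicate 1 and 2.42 in Irx5KO replicate 2. Pairs of values below keep this order of replicates. Both knockout values lay far under both WT values, and the WT libraries themselves differed 1.65 times. The WT mean was 101.1 times the Irx5KO mean (197 ± 68.2 against 1.95 ± 0.670 FPKM, SD, n = 2), a log2 change of -6.04 (SE 0.259) on the log2(FPKM + 1) scale, which understates changes that end near 1 FPKM. Areg, the gene of amphiregulin, read 91.1 and 81.5 FPKM in WT against 4.50 and 5.41 FPKM in Irx5KO. The replicates of each genotype lay close together and the groups were apart, with a WT mean 17.4 times that of Irx5KO and a log2 change of -3.88 (SE 0.174). Hbegf, the gene of HB-EGF, read 89.7 and 140.3 FPKM in WT against 5.48 and 14.1 FPKM in Irx5KO. Its groups did not overlap, but the knockout libraries differed 2.57 times, and the log2 change of -3.52 (SE 0.365) became -2.91 without Irx5KO replicate 1 and -4.13 without Irx5KO replicate 2. Ereg, the gene of epiregulin, read 30.8 and 39.5 FPKM in WT against 2.17 and 3.36 FPKM in Irx5KO, a WT mean 12.7 times higher and a log2 change of -3.27 (SE 0.212). Among all 11643 rows tested, ordered from the most negative change, Epgn stood at place 4, Areg at 29, Hbegf at 38 and Ereg at 51.

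The remaining ligands differed less or were barely present. Tgfa, the gene of TGF-alpha, read 10.4 and 14.3 FPKM in WT against 4.91 and 6.13 FPKM in Irx5KO. The groups were apart, with an Irx5KO mean at 44.7% of WT and a log2 change of -1.02 (SE 0.202). Btc, the gene of betacellulin, read 17.5 and 17.2 FPKM in WT against 8.997 and 14.99 FPKM in Irx5KO. Both knockout values were lower, but Irx5KO replicate 2 lay near WT, and the log2 change of -0.54 (SE 0.227) became -0.20 without Irx5KO replicate 1 and -0.88 without Irx5KO replicate 2. Egf, the founding ligand, was under the level filter and was not fitted, at 0.164 and 0.155 FPKM in WT against 0.157 and 0.175 FPKM in Irx5KO. All 7 ligands were lower in Irx5KO replicate 1 than in Irx5KO replicate 2, while 4 of 7 were lower in WT replicate 1 than in WT replicate 2.

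The receptors took the other direction or overlapped. Egfr, the receptor that binds all 7 ligands, read 19.9 and 24.8 FPKM in WT against 23.0 and 17.8 FPKM in Irx5KO. Its groups overlapped, and its log2 change of -0.13 (SE 0.195) turned to 0.11 in TPM, to 0.03 without WT replicate 2 and to 0.05 without Irx5KO replicate 2. Erbb2, the receptor without a ligand of its own, read 28.3 and 26.5 FPKM in WT against 40.9 and 44.2 FPKM in Irx5KO. The knockout libraries were both above WT, at 155% of the WT mean (log2 change 0.62, SE 0.167), a difference that shrank to 0.32 when the libraries were scaled by the median of ratios. Erbb3, the neuregulin receptor, read 18.1 and 22.4 FPKM in WT against 51.5 and 49.7 FPKM in Irx5KO. These groups were clearly apart, with an Irx5KO mean 2.50 times that of WT and a log2 change of 1.29 (SE 0.178) that lay between 0.99 and 1.55 over the scalings.

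**Figure D1:**
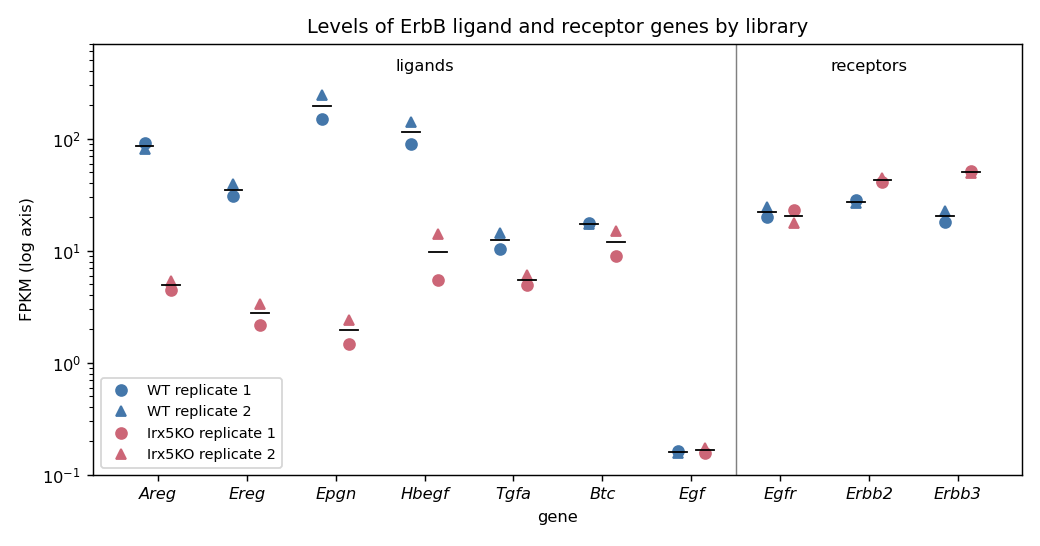
FPKM (log axis) of the 7 ligand genes and 3 receptor genes in each of the 4 libraries, with WT in blue, Irx5KO in red, circles for replicate 1, triangles for replicate 2 and bars at group means. Epgn is at 149 and 245 FPKM in WT against 1.47 and 2.42 FPKM in Irx5KO, Egfr overlaps, and Erbb3 is higher in both Irx5KO libraries.

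By the fit across all rows, 5 of the 9 members tested were called lower, beside 9.22% of all rows, 2 were called higher, beside 26.9%, and 2 were not called. The choice of members used this contrast, so nothing is read from these shares. The libraries of WT lay entirely above those of Irx5KO for 6 of the 10 members, beside 18.0% of all rows tested, and entirely below for 2, beside 54.3%, so that 8 of 10 did not overlap beside 72.3%. Members called higher came to 1 in place of 2 under the median of ratios, without Irx5KO replicate 1 and without Irx5KO replicate 2, and members called lower ranged from 4 with no filter to 6 under the median of ratios, under the replicate block and without Irx5KO replicate 2.

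**Figure D2:**
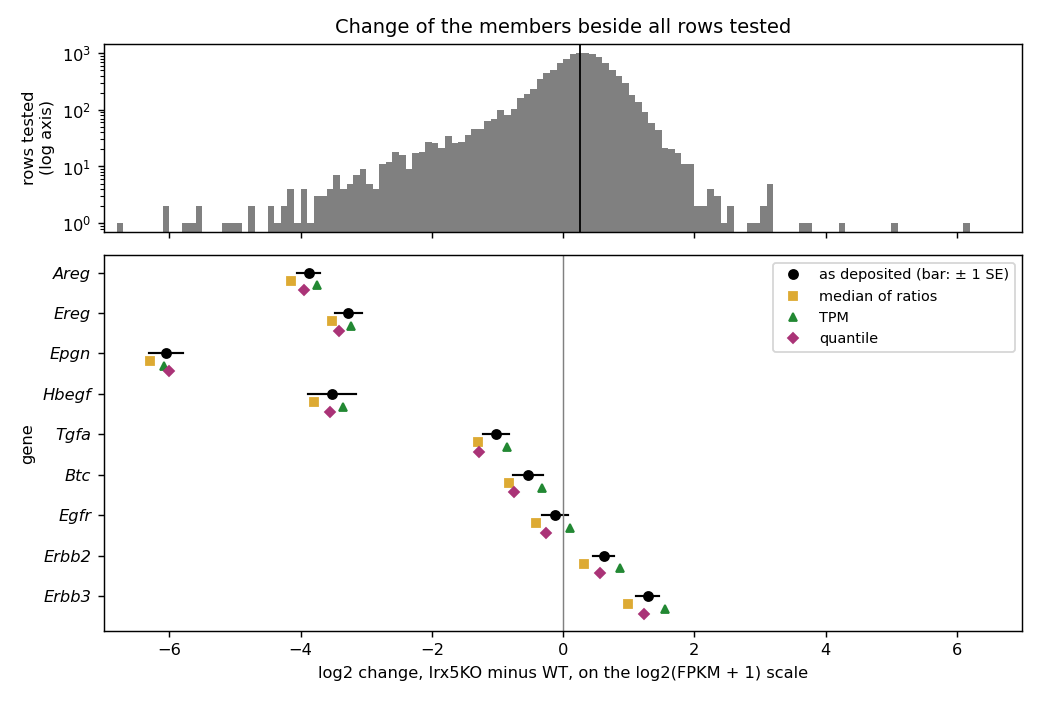
Upper panel, number of rows tested (log axis) by log2 change, with the median of 0.26 as a line. Lower panel, log2 change of the 9 members tested, with ± 1 SE, as deposited and under 3 other scalings. Epgn lies at -6.04, among the most negative of all rows, and only Egfr crosses 0 between the scalings shown.

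The order of the genes by level therefore differed between the genotypes. In WT it ran from Epgn through Hbegf, Areg, Ereg, Erbb2, Egfr, Erbb3, Btc and Tgfa to Egf. The 2 libraries of neighbouring genes overlapped for Hbegf and Areg and for Egfr and Erbb3, and were apart for the other neighbours. In Irx5KO the receptors stood above every ligand, in the order Erbb3, Erbb2, Egfr, Btc, Hbegf, Tgfa, Areg, Ereg, Epgn and Egf. Here Btc overlapped Hbegf, Hbegf overlapped Tgfa, Tgfa overlapped Areg, and Ereg overlapped Epgn, so these places are not separated by the spread.

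Summed over the 7 genes, ligand RNA came to 388 and 538 FPKM in WT against 27.7 and 46.6 FPKM in Irx5KO. The sum of the 3 receptors came to 66.3 and 73.7 FPKM in WT against 115 and 112 FPKM in Irx5KO. The WT ligand sum was 12.5 times that of Irx5KO on average, with 8.34 to 19.4 times over the 4 pairs of libraries. The ratio of ligand to receptor RNA, in which the scaling of a library cancels, was 5.86 and 7.30 in WT and 0.24 and 0.417 in Irx5KO. WT libraries thus held more ligand than receptor RNA, and Irx5KO libraries less.

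The make-up of the ligand sum also differed, which no scaling of a whole library can change. Epgn made up 38.3% and 45.6% of it in WT and 5.33% and 5.20% in Irx5KO. Btc went the other way, from 4.51% and 3.20% to 32.5% and 32.2%, and Tgfa from 2.67% and 2.66% to 17.7% and 13.2%. Hbegf held 23.1% and 26.1% in WT and 19.8% and 30.3% in Irx5KO, and Ereg 7.94% and 7.33% against 7.82% and 7.22%, so their groups overlapped in share although both were far lower in level. Areg held 23.5% and 15.1% in WT and 16.3% and 11.6% in Irx5KO, also overlapping. The 4 ligands that bind only EGFR summed to 250.4 and 341 FPKM in WT against 11.04 and 14.1 FPKM in Irx5KO, a ratio of means of 23.5. The 3 that also bind ErbB4 summed to 138 and 197 against 16.6 and 32.5 FPKM, a ratio of 6.82. Among the receptors, Erbb3 went from 27.3% and 30.4% of their sum to 44.6% and 44.5%, and Egfr from 30.0% and 33.6% to 19.9% and 16.0%, while Erbb2 overlapped, at 42.8% and 35.9% against 35.5% and 39.6%.

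**Figure D3:**
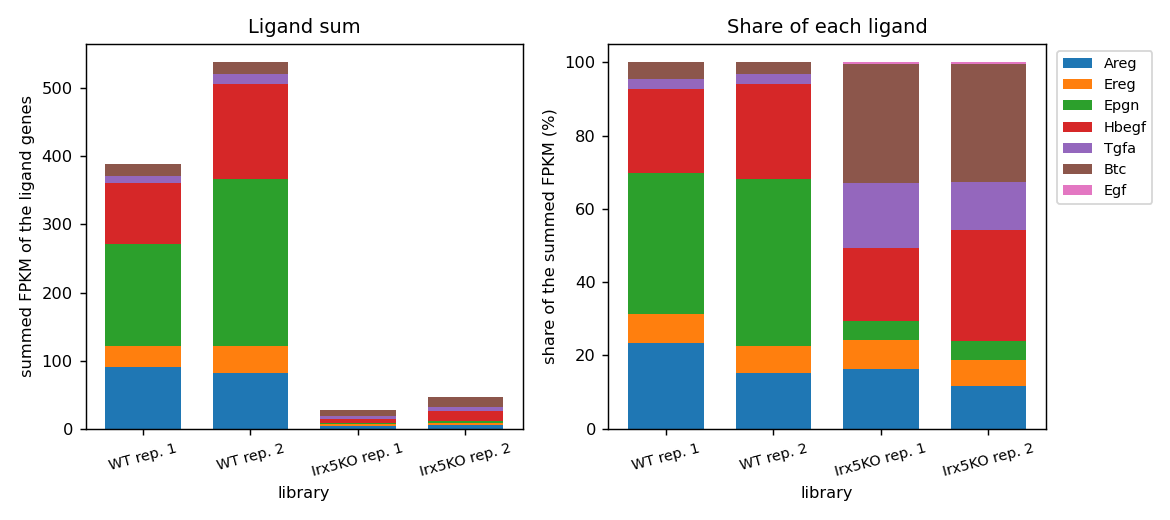
Left, summed FPKM of the 7 ligand genes per library. Right, share of each ligand in that sum in percent. WT libraries reach 388 and 538 FPKM with Epgn as the largest part, and Irx5KO libraries reach 27.7 and 46.6 FPKM with Btc as the largest.

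The protein-coding genes around the chromosome 5 cluster were followed next, 4 on each side, of which 6 were in the table and all 6 were tested. Cxcl1 and Cxcl2, which encode neutrophil-attracting chemokines and lie before Epgn, fell. Cxcl1 read 34.0 and 41.4 FPKM in WT against 0.399 and 0.54 FPKM in Irx5KO (log2 change -4.71, SE 0.178, limma adjusted p = 1.75e-06), and Cxcl2 3.52 and 3.85 against 0.0843 and 0.152 FPKM (log2 change -2.07, SE 0.159, limma adjusted p = 5.94e-05). Mthfd2l, a gene of mitochondrial folate metabolism that lies between them and Epgn and ends 6096 bases before it, did not pass, at 2.06 and 1.88 against 2.50 and 2.30 FPKM (log2 change 0.19, 95% interval -0.17 to 0.56, limma adjusted p = 0.369). Parm1, on the other side, beyond Btc, did not pass either, at 2.73 and 1.69 against 1.55 and 2.05 FPKM (log2 change -0.19, 95% interval -0.65 to 0.27, limma adjusted p = 0.493). Rchy1 and Cdkl2 did not pass (limma adjusted p = 0.133 and 0.286), and Rchy1 passed in TPM (adjusted p = 0.0230). Among the neighbours that did not pass, only Mthfd2l thus lies between genes that were lower in Irx5KO. Parm1, Rchy1 and Cdkl2 all lie beyond Btc. Intervals of this width do not show that the neighbours that did not pass were the same.

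**Figure D4:**
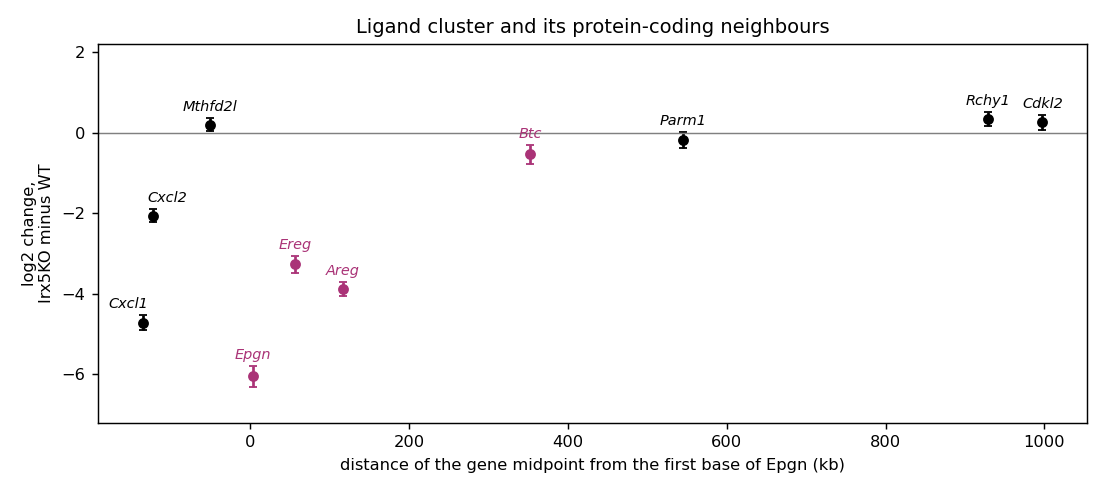
Log2 change (Irx5KO minus WT, log2(FPKM + 1) scale, ± 1 SE) of the 4 ligand genes (purple) and 6 tested neighbours (black) against distance from the first base of Epgn in kb. Cxcl1 and Cxcl2 are low on one side, while Mthfd2l, between them and Epgn, lies near 0.

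Other genes of the pathway were read from 5 lists of 95 genes, of which 94 were in the table and 82 were tested. In all 16 rose, beside 26.9% of all rows, 22 fell, beside 9.22%, and 44 did not pass, and 17 of the 22 that fell were on the list of genes induced through ERK. The rest of the family was scarce. Nrg4, a neuregulin that binds ErbB4, was the only one of 5 other ligand and receptor genes above the filter and fell from 2.76 and 3.43 to 1.81 and 1.24 FPKM (log2 change -0.70, SE 0.186, limma adjusted p = 0.0189). The call for Nrg4 was lost without WT replicate 2 (adjusted p = 0.0690), without Irx5KO replicate 2 (adjusted p = 0.172) and with no filter (adjusted p = 0.0915). Nrg1 was at 0.125 and 0.104 FPKM in WT against 0.407 and 0.25 FPKM in Irx5KO, Nrg2 at 0.57 and 0.352 against 0.672 and 1.02 FPKM, and Nrg3 was listed at 0 in all 4 libraries. Erbb4, the receptor shared by Ereg, Hbegf and Btc, did not exceed 0.0162 FPKM.

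Of 11 genes tested that release or traffic the ligands, 3 rose, 1 fell and 7 did not pass, a share called of 36.4% beside 36.1% of all rows, with a median of 0.23 beside 0.26. Adam17, the main sheddase of Areg, Ereg, Epgn, Hbegf and Tgfa, read 14.9 and 13.9 FPKM in WT against 21.6 and 20.4 FPKM in Irx5KO (log2 change 0.52, SE 0.163, limma adjusted p = 0.0363). Adam10, the main sheddase of Btc and Egf, read 15.2 and 17.3 against 25.2 and 25.1 FPKM (log2 change 0.60, limma adjusted p = 0.0230), and Frmd8, a partner of the iRhom proteins that carry Adam17 to the cell surface, 7.57 and 6.75 against 12.2 and 14.6 FPKM (log2 change 0.82, limma adjusted p = 0.00827). The iRhom genes themselves, Rhbdf1 and Rhbdf2, did not pass. Adam8, a metalloprotease of the same family, was the one that fell, from 20.5 and 28.6 to 8.04 and 9.34 FPKM (log2 change -1.39, SE 0.200, limma adjusted p = 0.00148). The 3 increases came to 6 in TPM, to 1 under the median of ratios, under quantile normalization, with no filter and without Irx5KO replicate 1, and to 0 without Irx5KO replicate 2, and the call of Adam17 was also lost without WT replicate 2 (adjusted p = 0.0537) and with the replicate block (adjusted p = 0.0574).

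Of 20 genes tested for inhibitors and turnover of the receptors, 4 rose, 3 fell and 13 did not pass. The 35.0% called lie near the 36.1% of all rows, and the median was 0.30 beside 0.26. Errfi1, a feedback inhibitor that ERK signalling induces and that binds the EGFR kinase, fell from 162 and 206 to 33.9 and 45.4 FPKM (log2 change -2.19, SE 0.216, limma adjusted p = 2.11e-04). Ptpn2, a tyrosine phosphatase, fell from 40.7 and 54.8 to 23.0 and 27.2 FPKM (log2 change -0.89, limma adjusted p = 0.0101), a call lost without Irx5KO replicate 1 (adjusted p = 0.0730) and with no filter (0.0616). Lrig3, of the family of leucine-rich transmembrane regulators, rose from 26.5 and 19.3 to 42.9 and 40.8 FPKM (log2 change 0.86, limma adjusted p = 0.0103), a call lost under the median of ratios (0.0531) and with no filter (0.0595). Its relative Lrig1, which marks stem cells of the upper follicle and promotes receptor turnover, did not pass, at 55.9 and 56.9 against 66.1 and 64.5 FPKM (log2 change 0.21, limma adjusted p = 0.359, and -0.09 under the median of ratios). The endocytic genes Eps15, Usp8 and Hgs rose by 0.63 to 0.74 on the log2 scale. The 4 increases came to 12 in TPM, to 2 under quantile normalization and with no filter, to 0 under the median of ratios, to 1 without Irx5KO replicate 1 and to 2 without Irx5KO replicate 2. Socs4, a suppressor of cytokine signalling, fell by 0.82 (limma adjusted p = 0.0236), a call lost without WT replicate 2 (adjusted p = 0.0886), without Irx5KO replicate 2 (0.144), with no filter (0.123) and in TPM (0.0518).

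Of 25 adaptor and Ras-ERK relay genes tested, 7 rose, none fell and 18 did not pass. The 28.0% that rose lie near the 26.9% of all rows, and the median was 0.26 beside 0.26. Grb7, an adaptor that binds ErbB2 and ErbB3 and lies beside Erbb2 in the genome, rose from 10.4 and 9.50 to 24.8 and 32.7 FPKM (log2 change 1.43, SE 0.187, limma adjusted p = 9.35e-04). Gab2, a docking protein for PI3 kinase and Shp2, rose from 2.50 and 2.22 to 5.67 and 5.91 FPKM (log2 change 1.02, SE 0.164, limma adjusted p = 0.00249). Mapk3, the gene of the kinase ERK1, did not pass, at 80.0 and 77.3 against 93.6 and 122 FPKM (log2 change 0.44, limma adjusted p = 0.113), but passed in TPM (0.00413) and under quantile normalization (0.0294). The 7 increases came to 12 in TPM, 3 under the median of ratios, 3 without Irx5KO replicate 1 and 2 without Irx5KO replicate 2. Without WT replicate 1 the list had 2 decreases.

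Of 25 genes tested that ERK is known to induce, 17 fell, beside 9.22% of all rows, 2 rose and 6 did not pass, which is 76.0% called beside 36.1%, with a median log2 change of -1.65 beside 0.26. The list was drawn up with results for several of its genes known, so this is not independent evidence of its direction. Fosl1, an AP-1 subunit, read 91.9 and 175 FPKM in WT against 0.221 and 0.19 FPKM in Irx5KO (log2 change -6.73, SE 0.272, limma adjusted p = 2.07e-06). Ptgs2, the inducible cyclooxygenase gene, fell from 6.20 and 6.54 to 0.21 and 0.168 FPKM (log2 change -2.63, SE 0.160, limma adjusted p = 1.89e-05). Plaur, the urokinase receptor gene, fell from 7.02 and 5.06 to 0 and 0.064 FPKM (log2 change -2.76, SE 0.186, limma adjusted p = 3.08e-05). The transcription factor gene Maff fell by 2.74, Phlda1 by 3.09 and the ERK phosphatase gene Dusp5 by 2.61 on the log2 scale (limma adjusted p = 4.70e-05, 1.78e-04 and 1.86e-04). Dusp6, another ERK phosphatase, named after its values were seen, fell from 41.7 and 82.9 to 9.72 and 13.2 FPKM (limma adjusted p = 9.30e-04).

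Not every gene of that list was lower. Spry2 and Spred1, inhibitors of Ras-ERK signalling that were also named after their values were seen, rose. Spry2 went from 15.8 and 13.6 to 31.8 and 31.5 FPKM (log2 change 1.06, SE 0.168, limma adjusted p = 0.00231), and Spred1 from 5.32 and 8.43 to 16.2 and 11.9 FPKM (log2 change 0.95, SE 0.234, limma adjusted p = 0.0147), a call lost without Irx5KO replicate 1 (adjusted p = 0.0734), under the median of ratios (0.0883), under quantile normalization (0.0871) and with no filter (0.0968). Fos did not pass, at 1645 and 1211 FPKM in WT against 552 and 1089 FPKM in Irx5KO (log2 change -0.86, limma adjusted p = 0.0891), and passed without Irx5KO replicate 2 (adjusted p = 0.0102) and under 2 scalings, the median of ratios and TPM. Egr1, a zinc finger factor, fell by 1.72 (limma adjusted p = 0.00274). Etv4 and Etv5, ETS factor genes, and the cyclin gene Ccnd1 were among those that did not pass, and were also named after their values were seen.

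**Figure D5:**
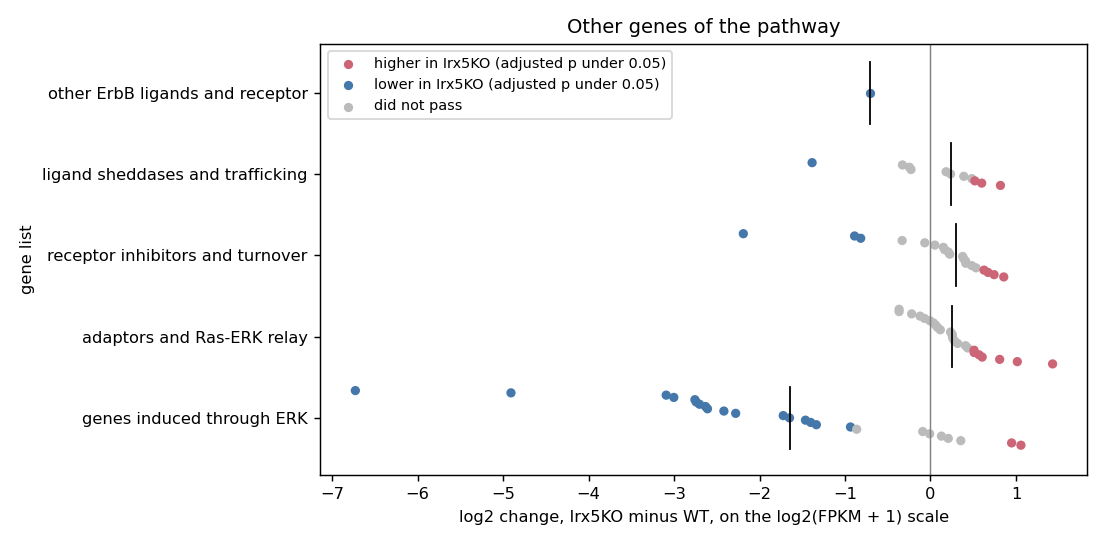
Log2 change (Irx5KO minus WT, log2(FPKM + 1) scale) of each tested gene of the 5 lists, with red for higher and blue for lower at an adjusted p under 0.05, grey for not passing and a line at each median. The genes induced through ERK spread down to -6.73 with a median of -1.65, while the medians of the sheddase, inhibitor and relay lists lie at 0.23 to 0.30.

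Genes that tissue dissociation is known to induce were also lower in the knockout libraries. All 20 on a list of such early and stress genes had both Irx5KO values under both WT values, 18 fell and none rose, with a median of -1.69. Of all rows tested, 18.0% did not overlap in that direction and 9.22% were called lower. Their summed level was 15633 and 14369 FPKM in WT against 3164 and 5879 FPKM in Irx5KO. This list was also chosen with earlier results of these data known, so the shares above are not independent evidence of its direction. The list of genes induced through ERK shares 5 genes with it. Without these, 13 of 20 tested fell and 2 rose, with a median of -1.84, beside 9.22% lower and 26.9% higher over all rows. Taking out shared genes does not separate the lists, because a gene left on the ERK list may also respond to dissociation. All 4 libraries came from skin treated by the same stated protocol, and the part of dissociation in the ligand levels was not tested.

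The rows whose values over the 4 libraries lay nearest to those of a member were listed by Euclidean distance between log2(FPKM + 1) values centred per row. They are a description of 4 libraries. Nearest to Epgn were Sprr1b, a cornified envelope gene at 74.5 and 127 FPKM in WT against 0.453 and 0.53 FPKM in Irx5KO (distance 0.28), then Ccdc85b, which overlaps Fosl1 in the annotation, the small RNA row Mir365-2, Fosl1 and the nuclear receptor gene Nr4a3 (distance 0.55 to 1.03). Nearest to Areg were Id3, Tnfaip3, Bcl3, Bhlhe40 and the small RNA row Snora64 (0.27 to 0.42), of which Tnfaip3 and Bcl3 are genes of the NF-kB system. Nearest to Hbegf were Adm, 1600029D21Rik, Tnfrsf12a, Csrnp1 and Lce1f (0.44 to 0.60). Nearest to Egfr were Ptpn4, Pcx, Slc39a11, Maml2 and Noc3l (0.05 to 0.06), all with overlapping groups like Egfr itself.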

How the data were processed

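Whole-epidermis RNA of 4 libraries was used, grouped by the genotype in their titles. The table holds FPKM values as deposited by the authors. The submitters' processing notes name the aligner Bowtie2, DESeq2 and the build mm10, with the step to FPKM and the annotation not given in the sources used here. No counts were used, so no count model was run. Nothing in the labels ties replicate numbers across genotypes, and nothing on litters is given, so p-values measure the spread between these libraries.

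Rows at 1 FPKM or more in 2 or more libraries were tested with limma 3.58.1 in R 4.3.3 on log2(FPKM + 1), with an intensity trend, 2-sided. P-values of the 11643 rows were adjusted together by Benjamini-Hochberg and read at 0.05. The script was tested on simulated data. Depth was estimated from single-transcript genes with an assumed fragment of 200 bases, as the step size with the most whole values. By that estimate 68.4% to 70.2% of low values fell within 0.1 of a whole fragment, so whole reads were not recovered. A step fixed in advance would give 20% by chance. The step used was picked for the highest share, so 20% is no baseline for it. The members and lists were chosen with earlier results of these data known. Named genes are the members, Irx5, the cluster neighbours, the other ErbB ligands and receptor and, for each further pathway list, up to 8 genes of smallest p and up to 4 of highest level. The 5 rows nearest to 4 of the members are also named, and exceptions are said to be such. One gene that the rule names is not reported here. Motifs and promoter windows were chosen after the data were seen. Positions are from GENCODE M21 (mm10), 1-based. Alternatives were a pseudocount of 0.1, no filter, scaling by the median of ratios, TPM or quantiles, the replicate number as a block, and leaving out each library.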

Additional observations from a re-analysis of the deposited data

How the results depend on the processing

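The number of genes called higher depended on the scaling, the filter and the libraries used. The 3127 rows called higher came to 1289 with no filter, 1226 under the median of ratios, 5577 in TPM, 1527 under quantile normalization and 1457 to 4048 when a library was left out, and the 1073 called lower to 712 with no filter, 1613 under the median of ratios and 725 to 1275 with a library left out. Of the pathway lists, the 16 increases came to 9 with no filter, 5 under the median of ratios, 33 in TPM, 9 under quantile normalization and 6 to 20 with a library left out. In TPM 1 neighbour of the ligand cluster was higher. Irx5 was at -0.48 in TPM and at -0.73 to -0.66 with a library left out. The cause of these shifts was not tested.

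The 4 ligands with the largest differences and Tgfa, Btc, Erbb2 and Erbb3 kept their direction under the 10 alternatives, and Egfr did not. Of 35 named genes of the lists and the neighbours that passed, 18 passed under each alternative, 17 lost the call under at least 1 and none changed direction. Of 18 that did not pass, 12 passed in some alternative and 9 turned. Under the median of ratios Araf was at -0.032, Cdkl2 at -0.0048, Lrig1 at -0.093, Mthfd2l at -0.016, Nras at -0.063, Rhbdf1 at -0.061 and Rhbdf2 at -0.11 on the log2 scale. Quantile normalization gave -0.056 for Cdkl2 and -0.065 for Mthfd2l, TPM 0.00996 for Furin, and leaving out a library -0.421 to 0.0489 for Parm1. The replicate block gave 3301 higher and 1166 lower rows. Same-numbered libraries did not deviate together (r = -0.07 across rows). That is 1 pair of differences, which cannot decide whether the numbers pair the samples. With 2 libraries a group, a lone library left after leaving one out is assumed to vary like the other group.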
